A study of Mus musculus with 6 samples.

Results

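The genes described here make, break down and sense prostaglandins. They are 10 genes chosen by name from the 22040 genes listed: Pla2g4a, which encodes the phospholipase that frees arachidonic acid from membranes; the cyclooxygenases Ptgs1 and Ptgs2; the terminal synthases Ptges and Ptgds; the prostaglandin dehydrogenase Hpgd; and the receptors Ptger1, Ptger2, Ptger3 and Ptger4. All 10 were found, each as a single entry. RNA-seq counts came from kidneys of wild-type C57BL/6 mice labelled as renal cortex, with 3 sham libraries and 3 libraries (IR24h) collected 24 h after the clamps were lifted from both renal pedicles, which had been closed for 30 min. The sources used here do not give the age or sex of the animals, the steps of the sham operation or whether each library came from its own mouse, so p-values measure the spread between these libraries. The comparison asks which transcripts differ between kidneys with this acute injury and sham kidneys.

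Prostaglandins are lipid signals made close to where they act. Arachidonic acid is turned by a cyclooxygenase into an unstable intermediate, from which terminal synthases make prostaglandin E2, prostaglandin D2 and the other prostanoids, and the signal ends when the product is carried into cells and oxidised by the dehydrogenase encoded by Hpgd. In the kidney Ptgs1 (COX-1) is known as the constant form, found in collecting duct, interstitium and vessels, and Ptgs2 (COX-2) as the inducible form of macula densa, thick ascending limb and medullary interstitial cells. Prostaglandin E2 acts there on blood flow, renin release and the transport of salt and water through the receptors EP1 to EP4.

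The libraries differed in ways that touch every result below. Totals were 14339985 to 17061844 counts in sham and 12877237 to 15998975 in IR24h libraries, of which the mitochondrial genome took 13.1 to 14.2% in sham and 68.9, 26.2 and 49.2% in IR24h libraries 1, 2 and 3. Levels are therefore given as CPM, counts scaled to library depth with trimmed-mean (TMM) factors, with the mean ± SD over 3 libraries. IR24h library 2 stood apart from the other injured libraries. Markers of proximal tubule were present in all libraries, with summed levels of 18887 to 23353 CPM in sham and 7681 to 14782 CPM in IR24h. That sum rests largely on Kap, which was not called, and 4 of the 7 markers fell, among them Slc34a1, a phosphate transporter (5869 ± 335 CPM in sham, 308 ± 117 CPM after injury; adjusted p = 0.00157 by edgeR). Of 5 genes of inner medulla and thin limb, 1 was called higher (Bst1), and their summed level was 55.6, 52.9 and 88.1 CPM in sham and 183, 70.8 and 385 CPM in IR24h libraries. Among them Slc14a2, a urea transporter of the inner medullary collecting duct, was counted 0, 0 and 87 times in sham and 302, 430 and 1489 times in IR24h libraries. How much medulla each sample held was not measured otherwise, and its part in the results was not tested. Adipoq, Plin1 and Lep, defining genes of fat cells, were at 0 in sham libraries and in IR24h library 1 and reached 16.0, 12.6 and 22.2 CPM in IR24h library 2. In tissue RNA of this kind, fewer cells of a type and less RNA per cell cannot be told apart.

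Of the 10 prostaglandin genes, 2 rose after injury (Ptgs2 and Ptger4), 1 fell (Ptgs1), 6 were not called and Ptger2 had too few counts to be tested. The test was edgeR's quasi-likelihood test, 2-sided, with Benjamini-Hochberg adjustment across the 13609 tested genes, with the line for a call drawn at 0.05. By that rule 16.3% of the tested genes were called, 8.65% as higher and 7.62% as lower (1177 and 1037 genes, against 398 and 611 when scaled by library size alone). Of the 9 tested members, the sham and IR24h libraries did not overlap in CPM for 5 (Pla2g4a, Ptgs2, Ptges and Ptger4 higher, Ptgs1 lower), against 41.5% of all tested genes, 19.9% higher and 21.7% lower. The median log2 fold change was 0.91 over the 9 and 0.05 over all tested genes. Ptgs2 had next to no sham counts and could pass the expression filter only through the IR24h libraries, so these counts are descriptions. All 3 calls were lost when any 1 sham library was left out. Calls over all genes shrank there too, to 246 to 292 higher and 196 to 237 lower. Without IR24h library 2, 5 members were called higher, the additions being Pla2g4a, Ptgds and Ptger3, but calls over all genes grew as well, to 3297 higher and 3382 lower.

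**Figure D1:**
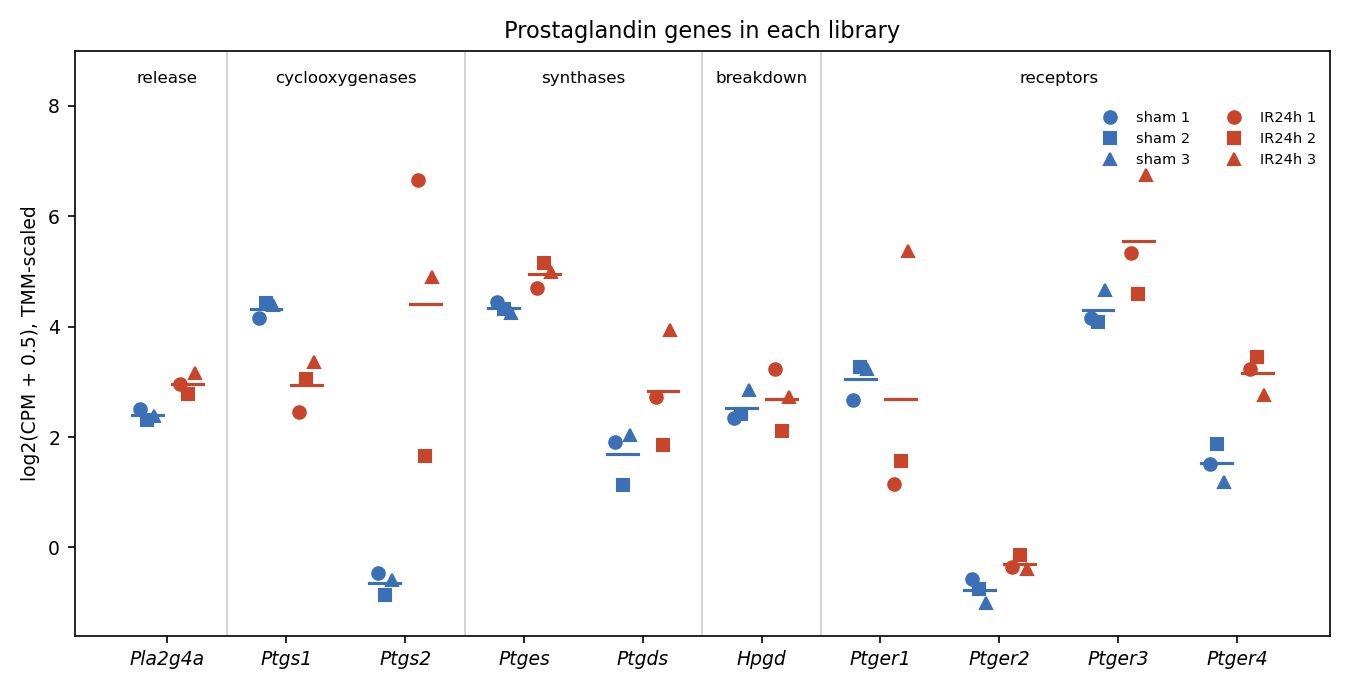
Level of each prostaglandin gene in each library, as log2(CPM + 0.5) after TMM scaling, grouped by role. Symbols mark the libraries (sham in blue, IR24h in red) and bars the mean of the 3 log values. Ptgs2 lies near the bottom of the scale in the 3 sham libraries, beside Ptger2, and spreads widely over the injured ones, Ptgs1 lies lower and Ptger4 higher in all 3 injured libraries, and Ptger1 is split, with IR24h library 3 far above IR24h libraries 1 and 2.

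The phospholipase gene was not called. Pla2g4a (ENSMUSG00000056220), which encodes cytosolic phospholipase A2 and lies on the minus strand of chromosome 1 from 149829618 to 149961290 (GRCm38), had 5.20, 4.47 and 4.69 CPM in sham libraries 1, 2 and 3. In IR24h libraries 1, 2 and 3 it had 7.24, 6.34 and 8.48 CPM. Each injured library thus lay above each sham library, yet the difference was not called (log2 fold change 0.62 ± 0.29 SE, adjusted p = 0.174 by edgeR). Without IR24h library 2 it was 0.71 (adjusted p = 0.0463). In a test on simulated counts, with the spread estimated from these libraries and the same in both groups, none of 78 genes changed 2-fold was called. Fewer genes were changed there than were called in the data, which makes the adjustment stricter in the simulation.

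Ptgs2 (ENSMUSG00000032487) lies 138740 bases from Pla2g4a, on the plus strand of chromosome 1 from 150100031 to 150108227. It held 4, 1 and 3 counts in the sham libraries, which is 0.228, 0.0481 and 0.162 CPM. In the injured libraries it held 710, 52 and 337 counts, or 101, 2.66 and 29.5 CPM. Even the lowest injured library, IR24h 2, stood above the highest sham library, and the injured libraries spread widely among themselves. The log2 fold change was 8.20 ± 1.47 (SE, adjusted p = 0.0126 by edgeR), and the exact permutation p (2-sided, log2(CPM + 0.5)) was 0.1, which is the floor for groups of 3. Under limma-voom the adjusted p was 0.10, and dropping sham 1, 2 or 3 left it at 0.0568, 0.0642 and 0.0690, so the call ended each time; with IR24h 2 as the only injured library the log2 fold change was 4.18.

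Ptgs1 (ENSMUSG00000047250; chromosome 2, plus strand, 36230426 to 36252272) went the other way. Its level was 17.4, 21.1 and 20.4 CPM in sham libraries 1, 2 and 3. After injury it was 4.97, 7.77 and 9.70 CPM, so that no injured library reached the lowest sham value. The mean fell from 19.6 ± 1.99 to 7.48 ± 2.38 CPM (log2 fold change −1.38 ± 0.31 SE, adjusted p = 0.0261 by edgeR; exact permutation p = 0.1). Set against sham on its own, IR24h 2 gave a log2 fold change of −1.32. Dropping sham 1, 2 or 3 ended the call (adjusted p = 0.0870, 0.118 and 0.112), as did scaling by library size alone (log2 fold change −1.78, adjusted p = 0.0644).

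The make-up of the cyclooxygenase counts does not depend on how libraries are scaled, since both genes are counted in the same library. Of the counts of Ptgs1 and Ptgs2 together, Ptgs2 gave 4 of 308 in sham library 1, 1 of 440 in sham 2 and 3 of 381 in sham 3, which is 1.30, 0.227 and 0.787%. It gave 710 of 745 in IR24h library 1 (95.3%, 95% Wilson interval 93.5 to 96.6), 52 of 204 in IR24h 2 (25.5%, 20.001 to 31.9) and 337 of 448 in IR24h 3 (75.2%, 71.0 to 79.0). Ptgs2 was thus the minor form in all 3 sham libraries and in IR24h 2, and the major form in IR24h 1 and 3. The mean share was 0.771 ± 0.536% (SD, n = 3) in sham and 65.3 ± 35.9% in IR24h, a difference of 64.6 percentage points (exact permutation p = 0.1, 2-sided, the smallest possible). Divided by gene length, the shares in the injured libraries were 96.2, 30.2 and 79.3%. The injured libraries differed by more than their counting intervals, which cover counting error only. The sum of markers of fibroblasts and mural cells, 5 of 7 called higher, followed the same order over the injured libraries as Ptgs2. It was 121 to 138 CPM in sham and 1798, 373 and 869 CPM in IR24h libraries 1, 2 and 3. Acta2 and Cspg4 of that list were instead highest in IR24h 3. The sums of endothelium (258, 62.3 and 241 CPM), mast cell (15.9, 11.3 and 13.9 CPM) and platelet markers had this order too. Of the endothelium markers, Kdr and Flt1 kept it, while Pecam1, Cdh5 and Emcn were highest in IR24h 3. The mast cell sum rests on Kit, since Cpa3, Mcpt4 and Tpsb2 were counted only in IR24h 2 (8, 4 and 5 times). The platelet sum rests largely on Itga2b. The order of the sums was thus not particular to fibroblasts and mural cells. Of 4 macula densa markers none was called, with sums of 11.7 to 19.1 CPM in sham and 13.1 to 20.2 CPM in IR24h libraries, Pappa2 being at 0 in IR24h 1 and 3. The part of these cells in the change was not tested.

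**Figure D2:**
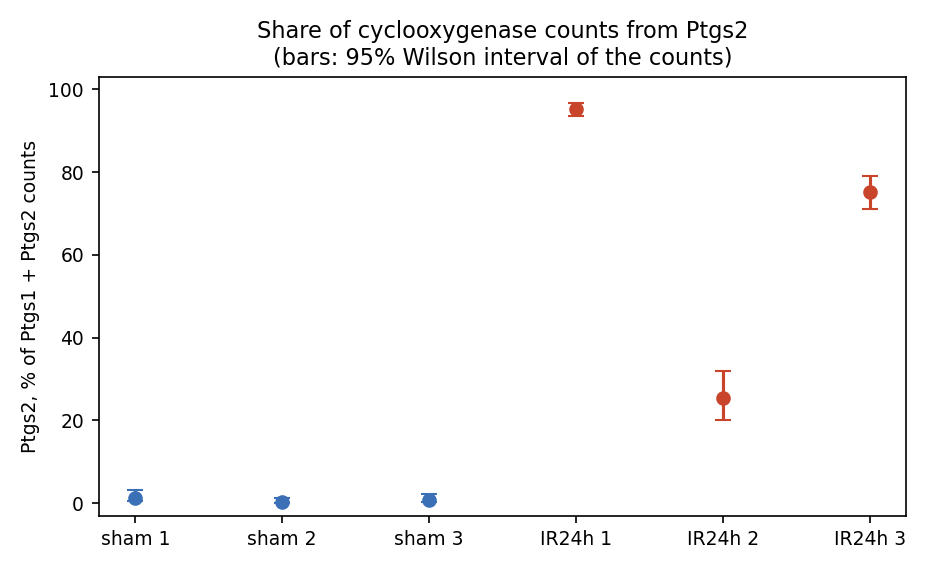
Share of Ptgs2 in the summed counts of Ptgs1 and Ptgs2 in each library, in percent, with 95% Wilson intervals of the counts. The 3 sham libraries lie at 0.227 to 1.30%, and the injured libraries at 95.3, 25.5 and 75.2%.

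The upstream sequences of the 3 called genes are shown because these genes moved in opposite directions. They are the 250 bases before the start that RefSeq gives (GRCm38.p6), written 5′ to 3′ on the gene's strand: chr1:150099781-150100030 for Ptgs2 (plus strand), chr15:5244188-5244437 for Ptger4 (minus strand) and chr2:36230176-36230425 for Ptgs1 (plus strand). A further 25 bases of Ptgs2, chr1:150100036-150100060, lie just after that start. Capitals mark matches to any of 7 motifs searched on both strands.
Ptgs2: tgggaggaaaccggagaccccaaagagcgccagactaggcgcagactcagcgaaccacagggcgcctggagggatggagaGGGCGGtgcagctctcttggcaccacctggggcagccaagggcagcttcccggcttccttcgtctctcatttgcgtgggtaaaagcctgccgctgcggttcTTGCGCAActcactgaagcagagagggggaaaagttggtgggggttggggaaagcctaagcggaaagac
Ptgs2, after the start: caccactaCGTCACGTGgagtccgc
Ptger4: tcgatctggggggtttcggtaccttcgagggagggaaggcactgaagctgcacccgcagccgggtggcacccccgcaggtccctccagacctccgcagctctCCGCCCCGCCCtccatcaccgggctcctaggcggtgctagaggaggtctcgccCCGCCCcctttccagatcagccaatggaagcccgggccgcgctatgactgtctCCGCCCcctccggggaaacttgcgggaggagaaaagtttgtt
Ptgs1: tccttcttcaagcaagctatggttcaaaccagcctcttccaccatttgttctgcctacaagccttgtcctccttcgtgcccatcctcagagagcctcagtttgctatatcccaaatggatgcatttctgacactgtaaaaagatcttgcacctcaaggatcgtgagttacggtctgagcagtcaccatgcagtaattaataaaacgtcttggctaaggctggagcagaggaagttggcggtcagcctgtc
RefSeq promoters of 300 bases, 250 before and 50 after the start, were matched for 9 of the 10 genes, Ptger1 being the exception. The motifs were the C/EBP box TTGCGCAA (held by 0.183% of the 32851 promoters in the table), the core of the cyclic AMP response element TGACG (20.8%), the E-box CACGTG (7.15%), the AP-1 site TGANTCA (7.81%), the TATA box TATAAA (13.6%), the GC box GGGCGG (35.7%) and the kB site (8.46%). They were picked knowing what is written of the Ptgs2 promoter. Ptgs2 was the only member whose window held the C/EBP box, the cyclic AMP element core or the E-box, the last 2 overlapping each other. GC boxes stood in the windows of Ptgs2, Ptges, Hpgd, Ptger3 and Ptger4, and the 4 matches of Ptger4, of which 2 overlap, were its only motif. The window of Ptgs1 held none of the 7. A match is a run of letters and was not tested as a binding site.

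Of the terminal synthases, Ptges, which encodes the inducible microsomal prostaglandin E synthase, was higher in each injured library without being called. Ptges (ENSMUSG00000050737; chromosome 2, minus strand, 30889471 to 30929863) had 21.3, 19.5 and 18.4 CPM in sham libraries 1, 2 and 3. The injured libraries had 25.4, 35.3 and 31.3 CPM, all above the highest sham value. The log2 fold change came to 0.64 ± 0.24 (SE, adjusted p = 0.112 by edgeR; exact permutation p = 0.1). DESeq2 called it (adjusted p = 0.0441), and scaling by library size alone gave 0.24. With IR24h 2 as the only injured library the log2 fold change was 0.85. Whether Ptges and Ptgs2, which acts just before it, changed by different amounts was not tested.

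Ptgds (ENSMUSG00000015090; chromosome 2, minus strand, 25466709 to 25470046), which encodes the lipocalin-type prostaglandin D synthase, had 3.25, 1.68 and 3.61 CPM in sham libraries 1, 2 and 3. It had 6.11, 3.12 and 14.9 CPM in IR24h libraries 1, 2 and 3, and IR24h 2 lay within the sham range. The log2 fold change of 1.49 ± 0.61 (SE) was not called (adjusted p = 0.132 by edgeR) and fell to 0.67 without IR24h 3. Without IR24h 2 it was 1.89 (adjusted p = 0.0167).

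The dehydrogenase gene Hpgd (ENSMUSG00000031613; chromosome 8, plus strand, 56294585 to 56321043) was not called, and its direction was not stable. Sham libraries 1, 2 and 3 had 4.57, 4.81 and 6.69 CPM and IR24h libraries 1, 2 and 3 had 8.95, 3.83 and 6.12 CPM. The groups overlapped, with the highest and the lowest value both among the injured libraries. The log2 fold change came to 0.22 ± 0.39 (SE, adjusted p = 0.724 by edgeR; exact permutation p = 0.7), and it turned to −0.37 when scaled by library size alone, to −0.12 without IR24h 1 and to −0.47 with IR24h 2 alone.

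Among the receptors, Ptger4 rose. It encodes EP4, which raises cyclic AMP, and lies on the minus strand of chromosome 15 from 5206661 to 5244187 (ENSMUSG00000039942). Its level was 2.34, 3.17 and 1.78 CPM in sham libraries 1, 2 and 3. It was 8.95, 10.5 and 6.29 CPM in IR24h libraries 1, 2 and 3, each above the highest sham value. Here IR24h 2, the injured library with the least Ptgs2, had the most Ptger4. The mean rose from 2.43 ± 0.701 to 8.57 ± 2.12 CPM (log2 fold change 1.81 ± 0.37 SE, adjusted p = 0.0184 by edgeR; exact permutation p = 0.1). Dropping sham 1, 2 or 3 ended this call too (adjusted p = 0.0922, 0.0673 and 0.0917), and so did scaling by library size alone (1.39, adjusted p = 0.126). Macrophage and monocyte markers, 4 of 7 called higher, had sums of 69.3 to 77.7 CPM in sham and 192, 119 and 256 CPM in IR24h libraries 1, 2 and 3. The sum was lowest in IR24h 2, and so were Csf1r, Cd68, Lyz2, Itgam and C1qa each on its own. Only Cd14 (29.5, 33.5 and 29.4 CPM) and Adgre1 were highest there, as Ptger4 was. The part of these cells in the rise was not tested. Of the exon bases of Ptger4, 15.3% lie opposite the pseudogene Gm15937, and the sources used here do not say whether counting used the strand.

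Ptger3, the EP3 receptor that lowers cyclic AMP and is known from thick ascending limb and collecting duct, was the most abundant of the receptors. Ptger3 (ENSMUSG00000040016; chromosome 3, plus strand, 157566892 to 157645888) had 17.3, 16.5 and 24.9 CPM in sham libraries 1, 2 and 3. The values in IR24h libraries 1, 2 and 3 were 39.9, 23.5 and 107 CPM, and IR24h 2 lay within the sham range. The log2 fold change was 1.54 ± 0.55 (SE, adjusted p = 0.0941 by edgeR; exact permutation p = 0.2), with calls by DESeq2 (adjusted p = 0.0293) and without IR24h 2 (1.91, adjusted p = 0.00981), and it was 0.69 without IR24h 3. Several marker lists, of tubule segments and of other cells, had sums in the same order over the injured libraries, and others did not. Thick ascending limb markers, 0 of 4 called, summed to 1816 to 2538 CPM in sham and to 3198, 1540.2 and 4916 CPM in IR24h libraries 1, 2 and 3, and principal cell markers, of which 1 of 5 was called lower, to 428 to 525 CPM and to 262, 157 and 656 CPM. With the inner medulla markers given above, the sums of all 3 lists were highest in IR24h 3 and lowest in IR24h 2, as Ptger3 was. Each marker of the 3 lists had this order except Slc12a1, Scnn1g, Aqp3 and Akr1b3. Slc12a1 was highest in IR24h 1 and Scnn1g in IR24h 2, and Aqp3 and Akr1b3 were lowest in IR24h 1. The sums of proximal tubule markers (11649, 7681 and 14782 CPM) and intercalated cell markers (116, 90.2 and 118 CPM) had this order too. The former owed it to Kap (10826, 5080 and 13814 CPM), since each other marker of that list was highest in IR24h 2. Of the intercalated cell markers only Atp6v1g3 kept the order, and Slc26a4 was highest in IR24h 2. The sums of macrophage and neutrophil markers had this order as well, so the order of the sums was not particular to these segments. The sum of distal convoluted tubule markers, 1 of 3 called lower, was highest in IR24h 2 instead. It was 140, 754 and 137 CPM in IR24h libraries 1, 2 and 3, though Pvalb was lowest in IR24h 2. The part of all these cells in the values of Ptger3 was not tested.

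Ptger1, the calcium-coupled EP1 receptor of the collecting duct, split the injured libraries. Ptger1 (ENSMUSG00000019464; chromosome 8, plus strand, 83666678 to 83672753) had 5.88, 9.13 and 8.85 CPM in sham libraries 1, 2 and 3. IR24h libraries 1 and 2 were below this range, with 1.70 and 2.45 CPM, and IR24h 3 above it, with 40.7 CPM. The log2 fold change of 0.91 ± 1.07 (SE, adjusted p = 0.581 by edgeR) therefore describes no library. Without IR24h 3 it was −1.91 (adjusted p = 0.0375). If counting did not use the strand, reads from the opposite strand could not be told apart from those of Ptger1, so its level is uncertain.

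Ptger2 (ENSMUSG00000037759; chromosome 14, plus strand, 44988195 to 45003820), the EP2 receptor, which like EP4 raises cyclic AMP, was close to undetected. Its counts were 3, 2 and 0 in sham and 2, 8 and 3 after injury, in the order of library numbers. It did not pass the expression filter. Tested without a filter, it was not called (log2 fold change 1.75 ± 1.12 SE, adjusted p = 0.327 by edgeR).

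Within the counts of the 4 receptors, Ptger3 held the largest share in each library, 57.1 to 70.1% in sham and 63.8 to 78.5% in IR24h. Ptger4 gave 9.11, 11.0 and 5.02% in sham libraries 1, 2 and 3. It gave 17.6, 28.5 and 4.07% in IR24h libraries 1, 2 and 3, above sham in IR24h 1 and 2 and below it in IR24h 3, where Ptger3 and Ptger1 were high. Ptger1 gave 22.9 to 31.6% in sham and 3.35, 6.67 and 26.4% in IR24h libraries. For all 4 shares the groups overlapped, and exact permutation tests, which cannot go below 0.1 here and so could call no share, gave these values (p = 0.3, 0.5, 0.5 and 0.4 for Ptger1 to Ptger4, adjusted p = 0.5 for each over the 4), with differences of −14.4, 0.280, 5.73 and 8.34 percentage points. Among Ptger2, Ptger3 and Ptger4 alone the difference of Ptger3 was −6.78 points. Ptger4 was thus higher in CPM in all 3 injured libraries but not in its share of receptor counts in IR24h 3.

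**Figure D3:**
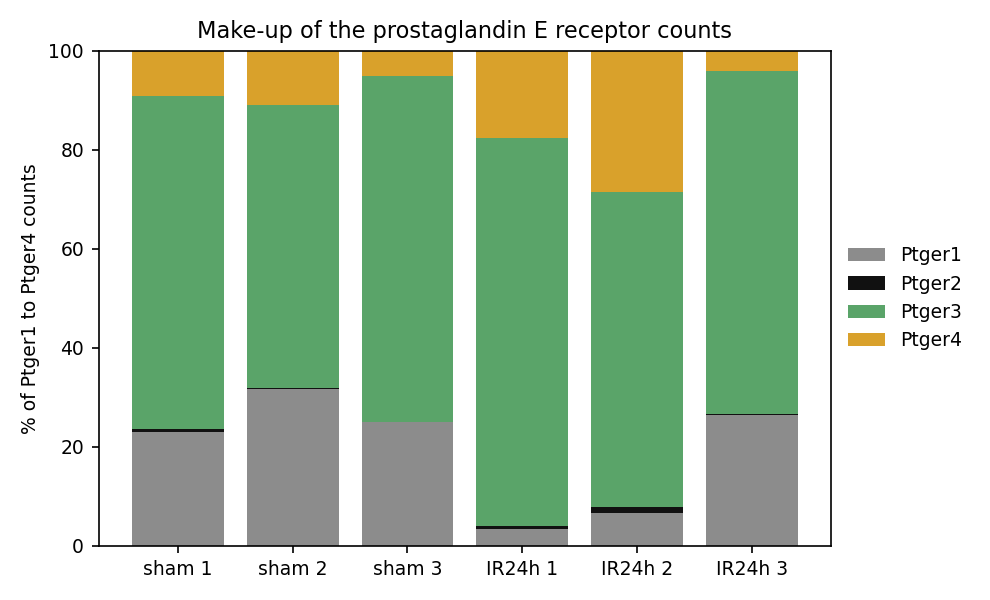
Make-up of the summed counts of Ptger1, Ptger2, Ptger3 and Ptger4 in each library, in percent of those counts. Ptger3 is the largest part everywhere, Ptger4 reaches 28.5% in IR24h library 2, and Ptger1 shrinks to 3.35 and 6.67% in IR24h libraries 1 and 2 but not in IR24h library 3 (26.4%).

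Per length, as CPM per kilobase of the gene length behind the deposited FPKM values, the order of the members changed with injury. In sham the highest level was that of Ptges (3.76 ± 0.275 CPM per kb), followed by Ptgs1 (3.31 ± 0.335), Hpgd (3.18 ± 0.690) and Ptger3 (2.54 ± 0.60), neighbours whose ranges overlapped. After a gap came Ptgds (1.08 ± 0.388), Ptger1 (0.879 ± 0.199) and Pla2g4a (0.630 ± 0.0488), again overlapping, then Ptger4 (0.320 ± 0.0924) on its own, and last Ptgs2 (0.0311 ± 0.0194) and Ptger2 (0.0141 ± 0.0136), which overlapped. In IR24h Ptgs2 had the highest mean (9.44 ± 10.8 CPM per kb), followed by Ptger3 (7.39 ± 5.77) and Ptges (5.83 ± 0.942), and Ptgs1 had moved to the seventh place (1.26 ± 0.401). The first place of Ptgs2 rests on IR24h 1, since its level was 21.5, 0.566 and 6.27 CPM per kb in IR24h libraries 1, 2 and 3. In IR24h 2 it lay below Ptgs1 (1.31 CPM per kb) and in IR24h 3 below Ptger3 (13.9 CPM per kb). In the injured group each neighbour overlapped the one above it, except Ptger2, the last (0.0503 ± 0.0125). The lengths behind these values were the same in both groups for all 10 genes but longer than the merged exons of GENCODE M21 for most, so the order rests on the submitters' lengths.

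**Figure D4:**
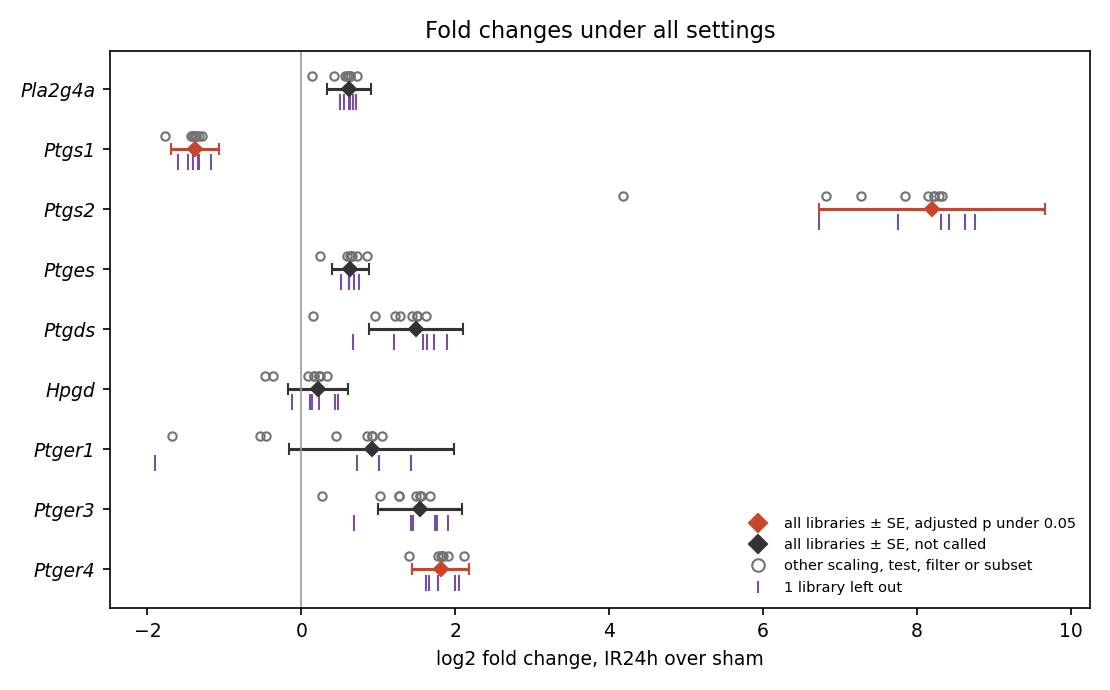
Log2 fold change of IR24h over sham for the 9 tested members. Diamonds with bars are the values with all 6 libraries ± SE (red where called), open circles other scalings, tests, filters or IR24h 2 as the only injured library, and ticks the values with 1 library left out. Ptgs1, Ptgs2 and Ptger4 keep their sign in all of them, Hpgd and Ptger1 do not.

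Most of the wider prostanoid pathway was not called, and the called genes went both ways. Of 39 other prostanoid genes, 38 had values and 27 could be tested, of which 4 rose (Akr1b8, Cbr1, Slco2a1 and Ptgfrn), 4 fell (Tbxas1, Ptges2, Ptgr2 and Ptgr1) and 19 were not called, where 8.65% of all tested genes were called higher and 7.62% lower. The median log2 fold change of the 27 was −0.37, against 0.05 over all tested genes. Tbxas1, which encodes thromboxane synthase, fell from 19.2 ± 2.30 to 2.95 ± 0.346 CPM (log2 fold change −2.69 ± 0.28 SE, adjusted p = 0.0019 by edgeR), with 2.56, 3.22 and 3.06 CPM in the injured libraries, and was called under each of the 15 other settings. Tbxas1 is known from macrophages and platelets. Of the 7 macrophage markers 4 rose, and Adgre1, not called, had 4.41 ± 0.103 CPM in sham and 0.284, 3.63 and 0.35 CPM in IR24h libraries 1, 2 and 3. The platelet markers, 0 of 1 tested called, summed to 7.02 to 10.8 CPM in sham and 2.505 to 19.5 CPM in IR24h. The part of these cells in the fall of Tbxas1 was not tested. Ptges2, which encodes another prostaglandin E synthase, fell from 54.2 ± 7.77 to 21.9 ± 7.61 CPM (−1.31 ± 0.32, adjusted p = 0.0329).

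Among the genes for uptake and breakdown, calls also went both ways. Slco2a1, the transporter that carries prostaglandins into cells, rose from 26.1 ± 2.67 to 87.2 ± 36.6 CPM (1.74 ± 0.34, adjusted p = 0.0163), with its highest value, 128 CPM, in IR24h 2. Ptgr2 and Ptgr1, reductases that act on the products of the dehydrogenase step, fell from 124 ± 5.01 to 51.7 ± 7.96 CPM (−1.27 ± 0.24, adjusted p = 0.0145) and from 15.2 ± 0.438 to 6.66 ± 1.86 CPM (−1.17 ± 0.30, adjusted p = 0.0364). Of the 50-base stretches of Ptgr2, 30.3% are shared with Gm47484 on the opposite strand. Cbr1, a carbonyl reductase that can act on prostaglandin E2, went from 20.5 ± 2.56 to 173 ± 34.3 CPM (3.07 ± 0.28, adjusted p = 0.00118), but the gene length behind its values differed between the groups by −1.86 on the log2 scale. The change of Cbr1 and the difference in processing cannot be told apart. Akr1b8, an aldo-keto reductase, rose from 1.77 ± 0.353 to 70.6 ± 26.4 CPM (5.32 ± 0.40, adjusted p = 8.17e-04). Ptgfrn, which encodes a membrane protein that binds to the prostaglandin F receptor, rose from 8.11 ± 1.55 to 25.0 ± 3.40 CPM (1.62 ± 0.27, adjusted p = 0.00992).

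The call of Slco2a1 was lost without any 1 sham library (adjusted p = 0.0800 to 0.0879) and with library size only (0.164), that of Ptgr2 likewise (0.0786 to 0.0828 and 0.0502), and that of Ptgfrn without sham 2 or 3 (0.0754 and 0.0661) and with library size only (0.141). Those of Ptges2 and Ptgr1 were lost under 7 of the 15 settings each, among them the fit with the replicate number as a block (adjusted p = 0.0564 and 0.0665).

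Several abundant pathway genes were not called. Ptgfr, the prostaglandin F receptor, had 27.1 ± 2.63 CPM in sham and a lower mean of 13.7 ± 8.26 CPM after injury (adjusted p = 0.148 by edgeR). Acsl4, which couples arachidonic acid to coenzyme A, had 37.7 ± 4.26 and 121 ± 147 CPM (adjusted p = 0.186), the latter resting on 290.3 CPM in IR24h 2, and Faah, an amide hydrolase, 59.6 ± 7.20 and 32.2 ± 10.4 CPM (adjusted p = 0.0782). Ptges3, Abcc4, Zadh2, Akr1b3, Pla2g12a, Pla2g6, Mgll and Lpcat3 had log2 fold changes from −0.60 to 0.78 with adjusted p of 0.401 to 0.858. Of 15 leukotriene and lipoxygenase genes, 8 were tested and 1 was called. This was Ltb4r2, a leukotriene B4 receptor, which fell from 0.918 ± 0.248 to 0.203 ± 0.0601 CPM (−2.10 ± 0.56, adjusted p = 0.0436), a call lost under 11 of the 15 other settings.

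**Figure D5:**
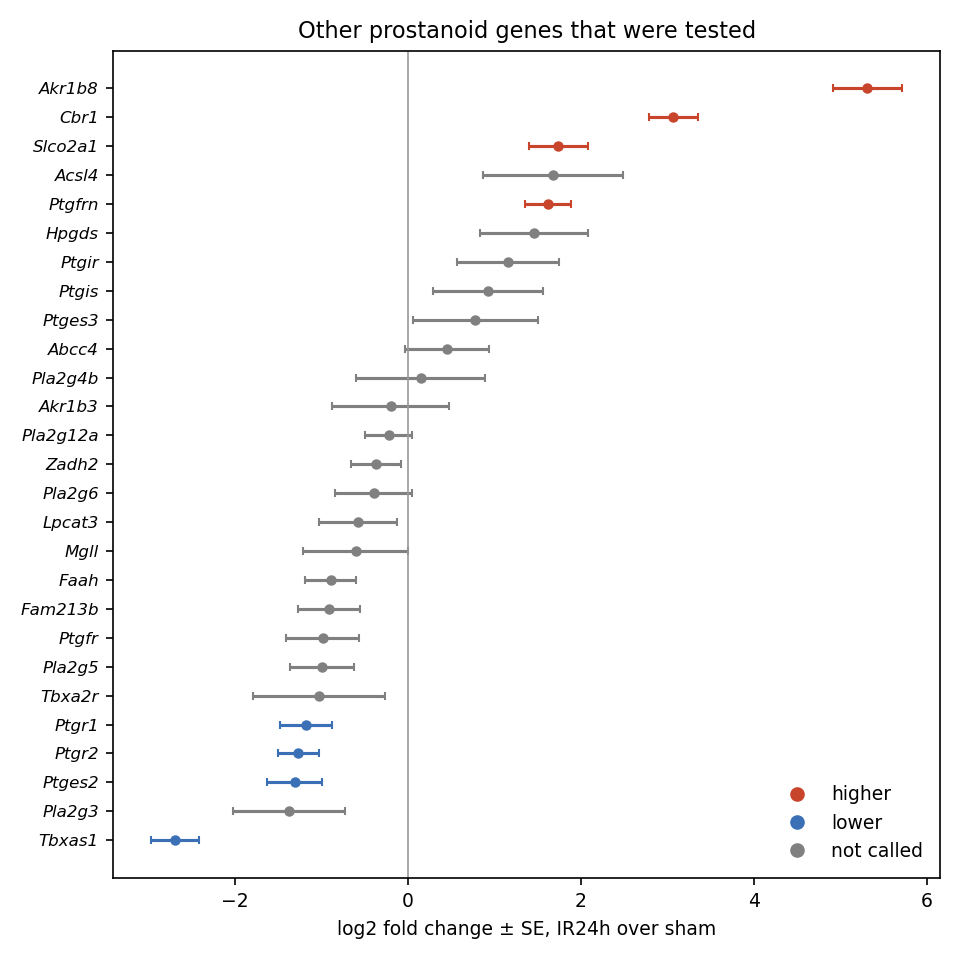
Log2 fold change ± SE of IR24h over sham for the 27 tested genes of the wider prostanoid pathway, with called genes in red (higher) and blue (lower). Akr1b8 (5.32) and Tbxas1 (−2.69) form the ends.

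The genes most like a member over the 6 libraries were found by Pearson's r of log2(CPM + 0.5) among 13110 tested genes averaging 1 CPM or more, as a description, since the groups alone align many genes. For Ptgs2 they were Fam25c (r = 0.9997), the chemokine gene Ccl9 (0.999) and Cd3eap (0.998), a gene of RNA polymerase I. Ccl9 had 0.755 to 0.865 CPM in sham and 59.1, 4.14 and 22.5 CPM in IR24h libraries 1, 2 and 3, the same order as Ptgs2. For Ptgs1 they were the proteasome subunit gene Psmd6 (0.999), Zfp385a (0.998) and Trim14 (0.997). Psmd6 had 62.6, 68.0 and 69.9 CPM in sham and 27.8, 37.5 and 42.5 CPM in IR24h libraries 1, 2 and 3.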

How the data were processed

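Total RNA labelled as renal cortex was sequenced after a TruSeq preparation, per the labels. Per the submitters' processing notes, CASAVA 1.8 and TopHat2 2.0.6 were used and mm10 and GRCh38 are named as builds; the sources used here name neither the read counter, nor its use of strand, nor the annotation. The authors deposited raw counts of reads per gene, which were tested, and FPKM values, used only for the gene lengths behind them. These lengths differed between the groups by more than 0.01 (log2) for 1681 of 12806 genes (13.1%) but for 0 of the 10 members. For IR24h libraries the total behind the FPKM was taken to be the listed counts, which was not measured. On that scale the total of the sham libraries exceeded their listed counts by 7.91 to 9.74%. The relation of total to listed counts thus differed between the groups, so the processing is confounded with them.

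Of 22040 genes, 83 without sham values were left out, and edgeR's filterByExpr kept 13609. Counts were compared with edgeR 4.0.16 (TMM, quasi-likelihood test; R 4.3.3); SE derive from the F statistic. DESeq2 1.42.0, limma 3.58.1 (voom), other scalings, no filter, each library left out, IR24h 2 alone and a replicate block were alternatives. Shares were compared by exact permutation (SciPy 1.17.1). Coordinates are from GENCODE M21 (GRCm38, the assembly of mm10), motifs and sequences from RefSeq. The named genes are the members, the called genes of 2 pathway lists, uncalled prostanoid genes averaging 10 CPM or more, the genes most like the called members with the highest and lowest fold change, and marker genes standing beside a member. 1 result is not reported here. Members and lists were chosen with earlier results of these data known.

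On counts simulated for the 13609 genes at the spread of this comparison, the test called 0 of 78 genes changed 2-fold, 25 of 53 changed 4-fold (47.2%) and 55 of 69 changed 8-fold (79.7%), all in the right direction, with 8 false calls. The changed genes were far fewer than the 2214 called in the data, so the adjusted threshold was stricter in the simulation. The simulation also drew each gene independently and gave both groups the same spread, whereas the real IR24h libraries differed more among themselves than the sham libraries. Whether these shares lie above or below those of the real comparison was not measured.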

Additional observations from a re-analysis of the deposited data

How the results depend on the processing

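Direction and call of the members held best for scalings close to TMM (DESeq2's size factors, upper quartile, totals without mitochondrial genes), where 2 members were higher and 1 lower each time. Scaling by library size alone shifted the median of all genes to −0.39 (log2) from 0.05, and gave 1 higher and 0 lower members, 2 higher and 1 lower other prostanoid genes, and 398 higher and 611 lower genes in all against 1177 and 1037. DESeq2 called 4 members higher and 2073 higher and 1695 lower genes, and limma-voom called 1 member higher. With IR24h 2 as the only injured library the spread came from the sham libraries alone, so no spread between injured libraries entered these calls: 2 members were lower, 8 other prostanoid genes higher and 8 lower, and 2690 genes higher and 2749 lower. The members went both ways with IR24h 2 alone. The log2 fold change was positive for Ptgs2 (4.18), Ptger4 (2.11), Ptges (0.85), Pla2g4a (0.42), Ptger3 (0.27) and Ptgds (0.15). It was negative for Ptger1 (−1.69), Ptgs1 (−1.32) and Hpgd (−0.47). Leaving out 1 library gave 0 to 5 higher and 0 to 2 lower members, 2 to 6 higher and 1 to 10 lower other prostanoid genes, and 246 to 3297 higher and 196 to 3382 lower genes. The largest of these counts came without IR24h 2, except that of lower members (without IR24h 3), and the smallest without a sham library. Signs turned for Hpgd (−0.37 with library size only, −0.12 without IR24h 1, −0.47 with IR24h 2 alone; range −0.12 to 0.48 with 1 library left out) and for Ptger1 (−0.46 with limma-voom, −1.91 without IR24h 3, −1.69 with IR24h 2 alone, −0.54 with the replicate block; range −1.91 to 1.43). The receptor share of Ptger3 turned to −6.78 points without Ptger1 in the sum, an alternative chosen after seeing the data. The cause was not tested. Leaving out 1 library, the Ptgs2 share differed by 49.6 to 84.5 points.

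Sham and IR24h libraries share the numbers 1 to 3, but the deviations of same-numbered libraries from their group means correlated at −0.11, 0.12 and 0.23, and not every library correlated best with its own number. With the replicate block, 2 members were higher and 1 lower, 4 other prostanoid genes higher and 2 lower, and 814 genes higher and 843 lower. In the simulated test, where the adjustment was stricter than in the data, 47.2% of genes changed 4-fold were called. What a missing call says is limited, and the share found in the data itself was not measured.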
